A study of Mus musculus with 6 samples.

Results

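The loss of mRNA after transcription was stopped was followed in mature dendritic cells of WT mice. The course consists of the 3 libraries that the sample labels assign to Mettl3 WT cells and to 0, 3 or 6 h of actinomycin D, out of 6 libraries in the decay experiment. The study asked how N6-methyladenosine (m6A), a methyl mark on mRNA that the Mettl3 enzyme writes, acts in dendritic cells, and the course of Mettl3 KO cells that completes the experiment is not analysed here. WT cells carried the floxed Mettl3 allele (Mettl3 fl/fl) without the CD11c-Cre transgene that deletes it, on a C57BL/6 background. Bone marrow of mice aged 6 weeks was cultured in GM-CSF at 10 ng/ml with IL-4 at 1 ng/ml, CD11c+ cells were picked with magnetic beads, and LPS (100 ng/ml), a bacterial cell wall component sensed by Tlr4, was given for 24 h to obtain mature dendritic cells (maDC). The matured cells received actinomycin D for 0, 3 or 6 h, and LPS was part of the history of all of them. By the study's methods the experiment drew on 2 littermate pairs of WT and KO mice, and how cells of the WT mice were distributed over the 3 libraries is not stated. Each time point is 1 library, so no value below has a replicate check, no p-value is given, and a difference between times compares single libraries.

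Actinomycin D intercalates into DNA and blocks RNA polymerases, so that a transcript which is no longer made can only stay or be degraded. The speed of mRNA decay differs widely between genes. Transcripts of signalling regulators and cytokines often carry AU-rich elements in the 3′ untranslated region (3′UTR), which are bound by proteins such as Zfp36 (tristetraprolin) that recruit the deadenylase and decapping machinery, whereas transcripts of housekeeping and secretory proteins are usually long-lived. In a dendritic cell that has met LPS, this sets how fast an inflammatory message can be turned off once its transcription ends.

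RPKM, a read count scaled to transcript length and to library size, was available for 23863 genes, and the 10517 genes whose RPKM averaged at least 1 across the 3 libraries were analysed. Amounts were set on a common scale by the ERCC transcripts, synthetic RNAs added to each sample in proportion to its total RNA. The ERCC share of the summed RPKM was 10.8%, 25.01% and 31.1% at the 3 times in turn. The scale factor derived from them, taken as 1 at 0 h, was 0.290 at 3 h (95% interval 0.277 to 0.297 over 82 ERCC transcripts) and 0.176 at 6 h (0.168 to 0.182). Summed over all genes, mRNA per total RNA was 0.357 of its 0 h level at 3 h and 0.213 at 6 h. In such bulk samples fewer cells of a type and less RNA per cell cannot be told apart. Amounts are per total RNA, and how much total RNA a cell held at each time was not measured in these libraries. Depth, estimated from the smallest steps in the RPKM values, was about 21800000, 20500000 and 19700000 reads. Only steps within a fixed range were used, which limits the values that the estimate could take. Read numbers and counting errors derived from it are therefore approximate.

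The cell type was checked against marker genes. All 12 dendritic markers were above 1 RPKM at 0 h, with a summed RPKM of 14855, 15896 and 19031 at 0, 3 and 6 h. From 0 to 3 h RPKM was higher for 6 of them, such as Cd74, and lower for 6, such as Ccr7. Itgax, Zbtb46 and Flt3 of this list were read at 13.1, 23.9 and 27.0 RPKM at 0 h. Macrophage markers were present as well, 9 of 10 above 1 RPKM and 4374, 8204 and 6232 RPKM in sum, and so were neutrophil markers, 8 of 10 above 1 RPKM with a sum of 7481, 11329 and 7680 RPKM, led by Lcn2, S100a8 and S100a9. The granule genes Ngp, Mmp8, Camp and Ltf of the neutrophil list were read at 225, 52.2, 48.6 and 36.4 RPKM at 0 h, and Elane and Mpo, granule genes of the earliest neutrophil precursors, were below 1 RPKM in every library. T cell markers summed to 12.1, 7.57 and 6.16 RPKM, B cell markers to 1.11, 0.871 and 0.575 RPKM, NK cell markers to 1.75, 1.59 and 0.929 RPKM, mast cell and basophil markers to 34.2, 32.5 and 11.4 RPKM, and erythroid markers to 1.41, 3.52 and 0.0717 RPKM. The summed RPKM of the macrophage and neutrophil lists peaked at 3 h, and their part in the values of single genes was not tested.

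Most mRNA was gone after 3 h. The median gene retained 17.1% of its 0 h amount at 3 h (16.3% to 17.4%, 95% interval from the spread between ERCC transcripts) and 8.21% at 6 h (7.84% to 8.50%). Its half-life, which is 2 divided by the sum of the loss rates to 3 h and to 6 h in log2 units per h, was 1.38 h (1.34 to 1.39 h). An error shared by all ERCC transcripts of a library is not covered by these intervals. With the authors' column factors the medians were 22.9%, 10.3% and 1.59 h, outside the intervals. The measured rate of loss was not the same over both intervals. The median rate was 0.85 log2 units per h over the first interval (0 to 3 h) and 0.34 over the second (3 to 6 h). Both rates use the same 3 h library, so an error in its scale factor moves them in opposite directions. The half-life of the median gene was 1.18 h from the 3 h library alone and 1.66 h from the 6 h library alone. Among the genes analysed, 7851 (74.7%) had a half-life between 1 and 2 h, 1044 (9.93%) below 1 h, 1243 (11.8%) between 2 and 3 h, 278 between 3 and 4 h and 82 above 4 h, while 19 genes had a mean rate not above 0 and therefore no half-life. Amounts were above their 0 h level in 15 genes at 3 h and in 17 genes at 6 h.

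**Figure D1:**
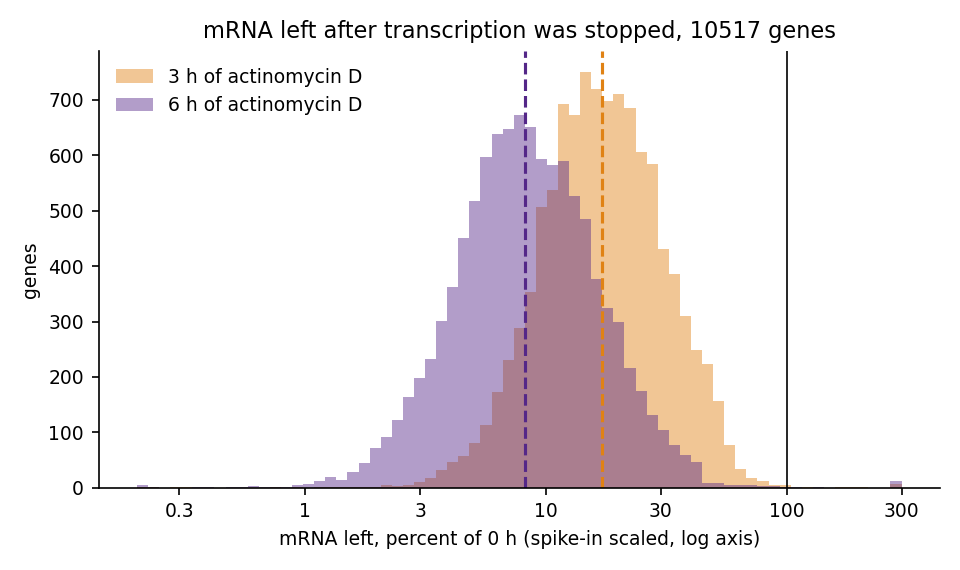
Histogram of the mRNA left at 3 h (orange) and 6 h (purple) of actinomycin D, as percent of the 0 h amount on a log axis, for 10517 genes (values below 0.2 or above 300 are drawn at the ends). The dashed lines mark the medians of 17.1% and 8.21%, and nearly all genes lie left of the black line at 100%.

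Since almost all genes lost mRNA, a higher RPKM at a later time went with a lower amount in most cases. RPKM is a share of the library, and it was higher at 3 h than at 0 h for 1946 genes (18.5%) and higher at 6 h than at 0 h for 1403 genes (13.3%). The libraries also narrowed over the course. The 100 most abundant genes took 41.0% of the summed RPKM at 0 h, 56.3% at 3 h and 62.6% at 6 h, and the 5 most abundant genes 15.1%, 23.8% and 24.97%.

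Genes were set against the median gene, a comparison that no spike-in factor can alter. A gene was called fast where its amount, relative to 0 h, was at least 2-fold below that of the median gene at both 3 h and 6 h, and slow where it was at least 2-fold above at both times. By this rule 921 genes were fast, which is 8.76% of all genes analysed, and 1061 were slow, or 10.1%. These shares, taken over all levels and lengths, are the background for every group described below. They differ with level. Of 10 groups by mean RPKM, the highest held 46.0% slow genes and the fourth 2.76%. The lists were not matched for level or transcript length.

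**Figure D2:**
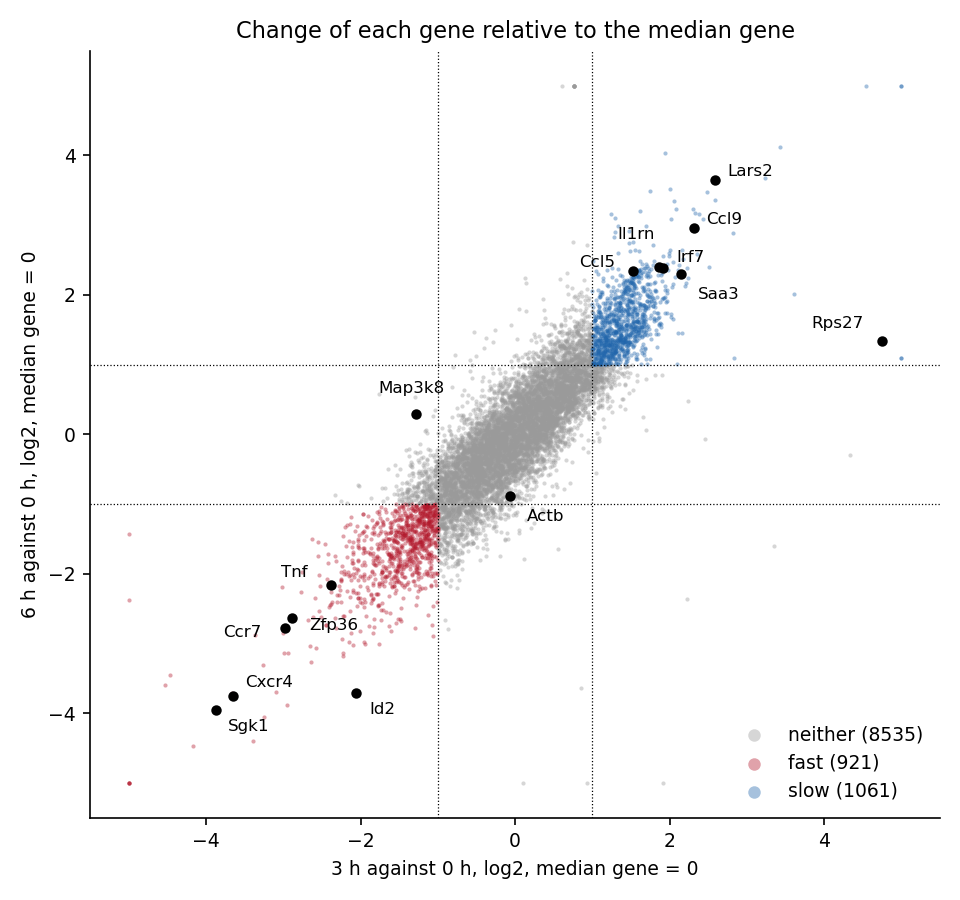
Log2 change of each gene from 0 h to 3 h (x axis) and from 0 h to 6 h (y axis) after subtracting the change of the median gene, with values beyond 5 drawn at the edge. Fast genes (921, red) lie at the lower left and slow genes (1061, blue) at the upper right of the dotted lines, which mark a 2-fold distance, and black points are named genes.

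Sgk1, Cxcr4 and Clec2d were the shortest-lived of the well expressed transcripts, those averaging 10 RPKM or more. Sgk1 (chromosome 10, 21882184 to 21999903, mm10, gene bounds of GENCODE M21), a kinase induced by serum and glucocorticoids, was read at 78.5, 3.04 and 2.26 RPKM at 0, 3 and 6 h. Its amount at 3 h was 1.16% of that at 0 h, for a half-life of 0.588 h. Cxcr4 (chromosome 1, 128588199 to 128592293), the receptor of the chemokine Cxcl12, was read at 86.6, 3.95 and 2.92 RPKM and had a half-life of 0.607 h. Clec2d, a ligand of an inhibitory NK cell receptor, followed with 183, 11.2 and 5.04 RPKM. Ccr7 (chromosome 11, 99144196 to 99155077), the receptor that guides mature dendritic cells to lymph nodes, was the most abundant of the 10 fastest genes at 0 h. It was read at 1771, 132 and 120 RPKM, so that 2.16% was left at 3 h and 1.19% at 6 h, and its half-life was 0.688 h. Tlr2, a receptor for bacterial lipoproteins, was read at 55.6, 4.17 and 2.85 RPKM. In each of these 5 genes the 0 h library stood far above both others, and most of the loss had taken place by 3 h. Sgk1 rested on about 4205, 153 and 109 reads, which gave an approximate standard error of 0.0232 on its rate of 1.70 log2 units per h, against 0.00395 on 1.45 for Ccr7.

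**Figure D3:**
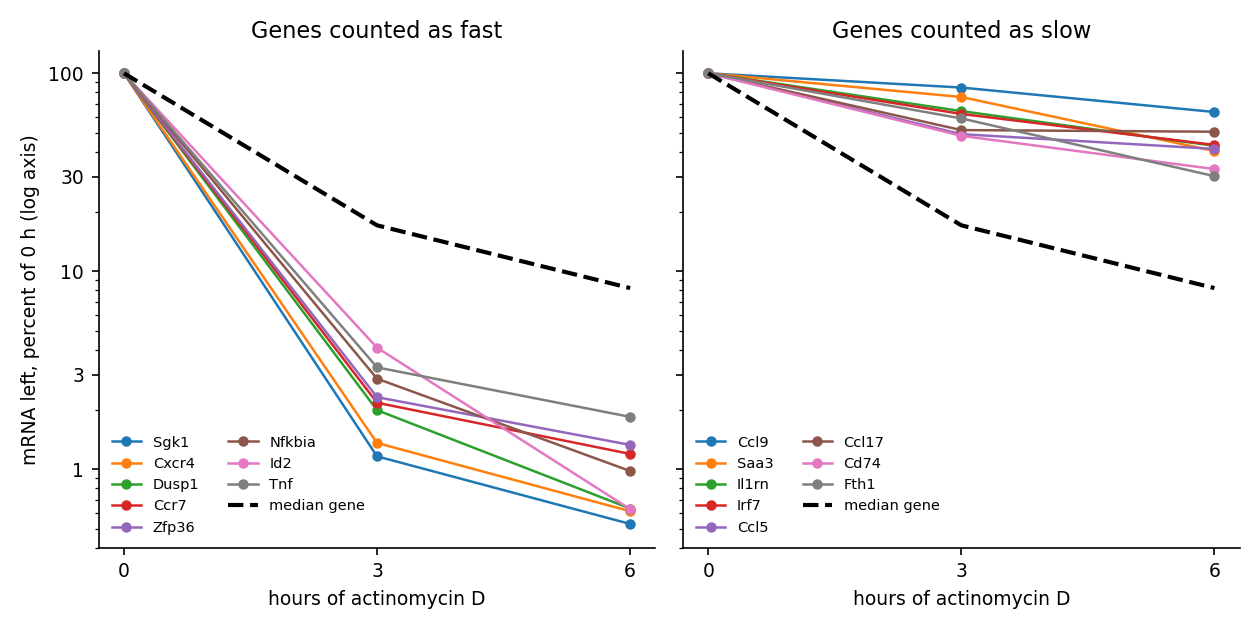
Amount of mRNA left, as percent of 0 h on a log axis, at 0, 3 and 6 h of actinomycin D for 8 fast genes (left) and 8 slow genes (right), 1 library per point. The dashed line is the median gene, which retained 17.1% and 8.21%. At 3 h the fast genes lie below it at no more than 4.11% (Id2) and the slow genes above it at no less than 48.3% (Cd74).

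At the other end stood Ccl9, Wfdc17, Spp1, Cst7 and Saa3. Saa3 (chromosome 7, 46711998 to 46715700), an acute phase protein induced by LPS, was read at 12323, 32247 and 28341 RPKM, and 75.9% of its amount was left at 3 h and 40.5% at 6 h. Ccl9, a CC chemokine of myeloid cells, was read at 21.7, 63.5 and 78.8 RPKM and had a half-life of 10.6 h. Wfdc17, a small secreted protein of activated macrophages, was read at 161, 424 and 469 RPKM, with a half-life of 6.94 h. Spp1 (osteopontin), a secreted phosphoprotein, was read at 24.97, 68.9 and 60.7 RPKM, and Cst7, an inhibitor of lysosomal cysteine proteases, at 42.6, 109 and 107 RPKM. The scavenger receptor Marco was read at 318, 861 and 652 RPKM and the neuropeptide precursor Npy at 29.4, 74.5 and 70.5 RPKM. RPKM of all these genes was higher at 3 h and at 6 h than at 0 h, whereas their amounts were lower at both times. Between 0 and 3 h RPKM was higher for 9 of 10 macrophage markers and for 5 of 10 neutrophil markers, among which Lcn2 went from 3281 to 6732 RPKM and Ngp from 225 to 153 RPKM, and their part in these values was not tested.

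Lars2 and Rps27 were among the 19 genes without a half-life. Lars2, the mitochondrial leucyl-tRNA synthetase, was read at 40.6, 143 and 238 RPKM, an amount of 102% at 3 h and 103% at 6 h. It was the only one of 35 aminoacyl-tRNA synthetase genes that was slow, and the longest half-life among the others was 1.99 h. Whether reads of other transcripts were counted for Lars2 was not tested. Rps27, a ribosomal protein gene, was read at 13.5, 216 and 15.99 RPKM, an amount of 459.8% at 3 h but 20.8% at 6 h, while its near-identical copy Rps27rt was read at 3487, 5256 and 7964 RPKM. Reads of such copies can be split between them in more than one way, so the values of both are uncertain. The same holds for the translation factor pair Eif3j1 and Eif3j2, which moved in opposite directions, with 0.749, 9.98 and 0.223 RPKM for Eif3j1 and 24.8, 0.185 and 4.22 RPKM for Eif3j2.

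Immediate-early transcription factors, which cells switch on within minutes of a stimulus, were among the fastest groups. Of 20 measured members 12 were fast and 0 were slow, the median half-life was 0.921 h, and every member had a rate above that of the median gene. Fos, a subunit of the AP-1 factor, was read at 12.4, 0.477 and 0.346 RPKM, and Jun, its partner, at 31.9, 4.51 and 3.402 RPKM. Klf2, a zinc finger factor that restrains inflammation, was read at 19.9, 0.554 and 0.324 RPKM, with a half-life of 0.558 h. Ier3, a survival factor induced by NF-κB, was read at 77.95, 5.67 and 4.06 RPKM. In all 4 genes the 0 h library stood well above both later libraries, and the 6 h library was the lowest. The 3 h and 6 h values of Fos (about 20.6 and 14.4 reads) and Klf2 (about 21 and 11.8 reads) were close to the floor. Fos and Klf2 passed the filter only through the 0 h library. Maff, Egr2, Fosl2 and Nr4a2, at the long end of the list, had half-lives of 1.16, 1.15, 1.102 and 1.08 h and did not reach the 2-fold distance at both times.

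Feedback inhibitors, which turn signalling off again, behaved alike. Of 26 members 13 were fast and 0 slow, with a median half-life of 0.954 h. Among the phosphatases that inactivate MAP kinases, Dusp1 was read at 104, 7.01 and 3.63 RPKM, Dusp2 at 15.5, 0.294 and 0.4998 RPKM and Dusp5 at 131, 12.2 and 6.26 RPKM. Their half-lives were 0.645, 0.561 and 0.695 h. The 3 h and 6 h values of Dusp2 were close to the floor, at about 9.76 and 15.9 reads. Dusp2 passed the filter only through the 0 h library. Nfkbia (IκBα), which holds NF-κB in the cytoplasm, was read at 460.5, 45.4 and 25.5 RPKM and had a half-life of 0.709 h. Its relative Nfkbib was read at 152, 65.7 and 49.2 RPKM, with a half-life of 1.19 h. Socs1, an inhibitor of cytokine receptor signalling that the study discusses, was read at 104, 22.99 and 26.0 RPKM. Its half-life of 0.965 h was short, but at 6 h its distance from the median gene was below 2-fold, so it was not called fast. Socs2 and Cish, of the same family, were read at 149, 78.96 and 96.5 RPKM and 12.1, 4.903 and 6.94 RPKM, with half-lives of 1.41 and 1.27 h. The slowest member was Tnip2, a binding partner of the deubiquitinase A20, at 1.75 h.

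RNA-binding proteins that regulate the stability or translation of inflammatory mRNA formed a group of 13 members, of which 3 were fast and 0 slow (median half-life 1.15 h). The 3 fast members were Zfp36, Zfp36l2 and Zc3h12d. Zfp36, which binds AU-rich elements and promotes decay, was read at 393, 31.2 and 29.5 RPKM, and 2.31% was left at 3 h. Zfp36l2 was read at 32.6, 6.19 and 4.45 RPKM, and the ribonuclease Zc3h12d at 9.19, 2.23 and 1.79 RPKM. Zfp36l1 had a half-life of 0.985 h. Tia1 and Tial1, which mainly restrain translation, Rc3h2, which promotes decay, and Elavl1 (HuR), which stabilises AU-rich transcripts, had half-lives of 1.85, 1.45, 1.61 and 1.38 h, at or above that of the median gene.

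The AU-rich elements of these transcripts are shown here because they are the sequences that such proteins bind. The windows below are stretches of 30 bases of annotated 3′UTRs (GENCODE M21 on GRCm38, which is mm10), written 5′ to 3′ on the transcript strand with T for U. Capitals mark the pentamer ATTTA and the nonamer TTATTTATT, which overlap each other. Each window is the one richest in these motifs in its 3′UTR, and the genes were chosen after their values were seen. In 6 fast genes the windows read as follows, with those of Tnf on chr17:35199678-35199707, Ppp1r15a on chr7:45522957-45522986, Il10ra on chr9:45254115-45254144, Dusp1 on chr17:26506159-26506188, Zfp36 on chr7:28376953-28376982 and Tnfaip3 on chr10:19001754-19001783, all on the minus strand.
Tnf: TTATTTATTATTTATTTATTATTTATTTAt
Ppp1r15a: gtagtttcctaTTATTTATTTATTTATTTA
Il10ra: cctTTATTTATTTATTtgctcacttATTTA
Dusp1: ggagctggtccTTATTTATTTAacaccccc
Zfp36: ATTTAtgacgactTTATTTATTgtattaag
Tnfaip3: tTTATTTATTatgaacttccaagttATTTA
In 2 slow genes the windows held 5 pentamers (Cxcl2) and 3 pentamers (Cd38), against 2 to 5 in the 6 fast genes. That of Cxcl2 lies on chr5:90905328-90905357 and that of Cd38 on chr5:43911494-43911523, both on the plus strand.
Cxcl2: ATTTATTTAtctatgtATTTATTTATTTAt
Cd38: actttcctcATTTATTTATTTAattgagct

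The inflammatory cytokine Tnf, with 8 pentamers and 5 nonamers in its 3′UTR, was read at 52.1, 5.78 and 5.35 RPKM and had a half-life of 0.767 h. Ppp1r15a, a phosphatase subunit of the stress response with 4 of each, was read at 47.02, 7.85 and 5.92 RPKM, and the IL-10 receptor chain Il10ra at 53.9, 6.93 and 10.1 RPKM. Tnfaip3 (A20), a deubiquitinase that ends NF-κB signalling, was read at 44.1, 5.35 and 4.79 RPKM, a half-life of 0.784 h. The neutrophil chemokine Cxcl2 carried 11 pentamers and 4 nonamers, more pentamers than Tnf, yet it was slow, with 115, 146 and 212 RPKM and a half-life of 2.65 h. Cd38, an enzyme of NAD metabolism on the cell surface, was likewise slow at 61.7, 106 and 81.7 RPKM. Windows with several pentamers were therefore found in some fast and some slow genes, and these chosen windows do not show how often.

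Across the transcriptome genes with these motifs had a slightly shorter median half-life. A 3′UTR was available for 9753 of the 10517 genes (92.7%), of which 887 were fast and 927 slow. ATTTA was present in the 3′UTR of 77.1% of fast, 38.0% of slow and 66.5% of all these genes. Per kb of 3′UTR it occurred 1.807 times in fast, 1.365 times in slow and 1.815 times in all genes. Fast genes were thus not richer in it per base than all genes. The nonamer was present in 9.25% of fast, 3.45% of slow and 7.34% of all genes. The median half-life was 1.53 h without ATTTA, 1.39 h with 1 copy, 1.32 h with 2, 1.26 h with 3 to 4, 1.27 h with 5 to 7 and 1.26 h with 8 or more. The share of fast genes was 6.22% without ATTTA, 13.0% with 3 to 4 copies and 6.92% with 8 or more. However, the fast genes also had longer 3′UTRs, with a median of 1223 bases against 376 bases in slow genes and 978 bases over all genes, and a long sequence holds more motifs. Genes were therefore divided into 4 groups of equal size by 3′UTR length. Genes with the nonamer had a median half-life of 1.38 h against 1.59 h without it in the group with the shortest 3′UTRs (39 against 2401 genes) and 1.35 h against 1.400 h in the next (106 against 2331). The values were 1.23 h against 1.31 h in the third (187 against 2251) and 1.24 h against 1.27 h in the group with the longest (384 against 2054). The interquartile ranges overlapped in every group.

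**Figure D4:**
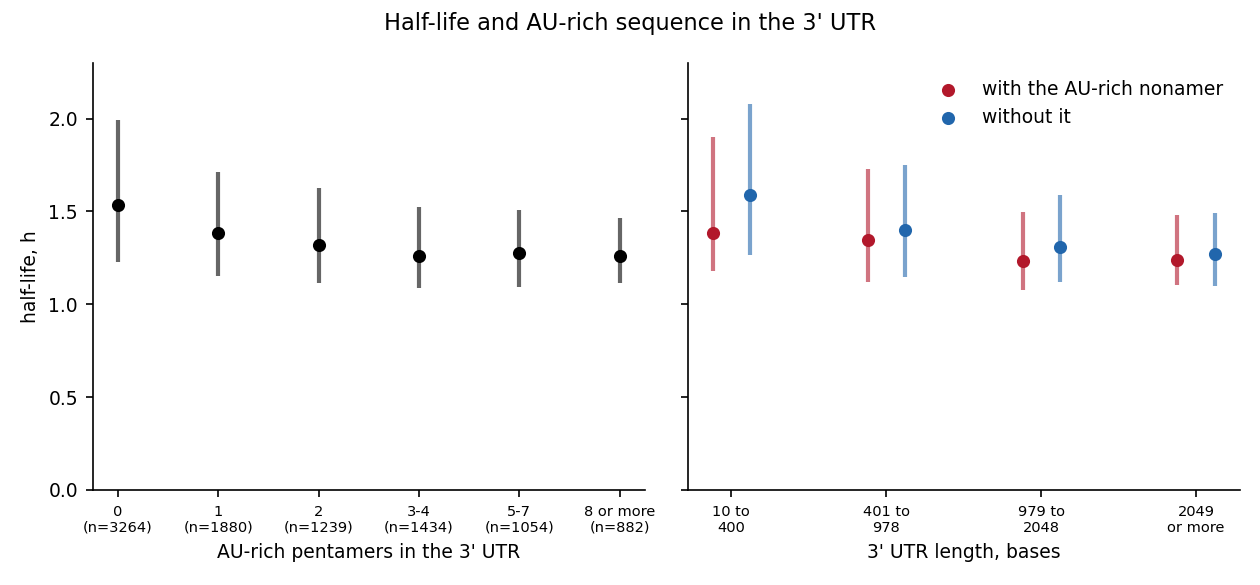
Median half-life in h (points) with its interquartile range over genes (bars). Left, genes by the number of ATTTA pentamers in the 3′UTR, from 1.53 h without one to 1.26 h with 8 or more; right, genes with (red) and without (blue) the nonamer TTATTTATT in 4 groups by 3′UTR length, where the ranges overlap in every group.

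Transcript length and gene structure also went with decay. Fast transcripts had a median length of 3241 bases against 1410 in slow transcripts and 2893 over all genes. Of 4 groups of equal size by transcript length, the shortest had a median half-life of 1.70 h with 24.6% slow genes, and the longest 1.24 h with 1.56% slow genes. Across genes, the rate had a Spearman correlation of 0.35 with transcript length, 0.27 with 3′UTR length and 0.02 with the density of GGACT, a form of the sequence at which m6A is written (n = 9753 genes, which share the 3 libraries and are not independent). GGACT occurred at a median of 1.12 per kb in fast, 1.04 in slow and 1.05 in all transcripts. The 174 genes with a single exon had a median half-life of 1.14 h, and 27.6% of them were fast.

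Chemokine receptors and chemokines stood at opposite ends. Of 14 receptors of chemokines and other migration signals, 8 were fast and 0 slow, and the median half-life was 0.898 h. Beside Ccr7 and Cxcr4, described above, Ptafr, the receptor of platelet-activating factor, was read at 35.1, 3.65 and 5.42 RPKM. Cxcr2, the receptor of Cxcl1 and Cxcl2, was read at 2.75, 0.106 and 0.192 RPKM. Its mean of 1.016 RPKM passed the filter only through the 0 h library. Its later values were close to the floor, at about 6.65 and 11.5 reads. The formyl peptide receptors Fpr1 and Fpr2 had half-lives of 1.11 and 1.51 h, that of the complement receptor C5ar1 was 1.17 h and that of the fractalkine receptor Cx3cr1 1.31 h. 

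Of 19 chemokines, 12 were slow and 2 fast, with a median half-life of 2.83 h. Ccl5 (RANTES, chromosome 11, 83525778 to 83530518), which attracts T cells, was the most abundant transcript in the 0 h library. It was read at 23084, 39211 and 54441 RPKM, and 49.3% of its amount was left at 3 h and 41.5% at 6 h. Ccl17, a ligand of Ccr4, was read at 125, 223 and 361 RPKM, a half-life of 4.16 h. Ccl22, the other ligand of Ccr4, was read at 4409, 5052 and 7993 RPKM with a half-life of 2.49 h, below the 2-fold distance at 3 h. In Ccl5, Ccl17 and Ccl22 RPKM was lowest at 0 h and highest at 6 h. Ccl24 and Ccl12 were close to the floor, at 0.636, 1.697 and 3.399 and 0.351, 1.03 and 1.88 RPKM. The 2 fast members were Ccl4, a chemokine for monocytes and T cells, at 36.7, 6.31 and 5.74 RPKM, and the interferon-induced Cxcl10 at 13.3, 2.46 and 1.49 RPKM. Cxcl1, which attracts neutrophils as Cxcl2 does, was read at 190.2, 44.7 and 50.2 RPKM and had a half-life of 0.986 h.

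Cytokines spread over the whole range. Of 28 members 5 were fast and 2 slow, and the median half-life was 1.52 h. Il1rn (chromosome 2, 24336853 to 24351494), the antagonist of the IL-1 receptor, was read at 77.3, 172 and 189 RPKM, a half-life of 4.82 h. Ebi3, a subunit of IL-27 and IL-35, was the other slow member with 176, 277 and 334 RPKM. Fast members beside Tnf were Tnfsf4 (OX40 ligand), a T cell co-stimulator, at 65.9, 7.86 and 6.14 RPKM, Osm, a cytokine of the IL-6 family, at 23.1, 3.54 and 4.71 RPKM, Il16, which attracts CD4+ T cells, at 5.33, 0.447 and 0.529 RPKM, and lastly Ltb (lymphotoxin β), at 8.79, 2.495 and 1.28 RPKM, which was named after its values were seen. Il16 was below 1 RPKM at 3 h and 6 h and passed the filter only through the 0 h library. Il6, the pyrogenic cytokine, was read at 134, 52.05 and 73.4 RPKM with a half-life of 1.24 h, and Il12b, the p40 subunit of IL-12, at 131, 90.03 and 115 RPKM with 1.64 h. Il6 and Il12b RPKM was lowest at 3 h and higher again at 6 h, whereas their amounts declined at both steps, for Il6 to 11.2% and then 9.62% of the 0 h amount. The antagonist Il1rn was thus slow while Tnf was fast in the same libraries.

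Most transcripts of antigen presentation had longer half-lives than the median gene. Of 13 genes of MHC class II presentation 9 were slow and 0 fast, with a median half-life of 2.40 h. Cd74, the invariant chain that escorts class II molecules, was read at 3315, 5520 and 6179 RPKM, and 48.3% was left at 3 h. The class II chains H2-Ab1, H2-Aa and H2-Eb1 were read at 1040, 1823 and 1631 RPKM, 1342, 2006 and 2000 RPKM and 686, 1069 and 1246 RPKM. Their half-lives were 3.15, 2.76 and 3.05 h. H2-Eb2, a related gene discussed in the study, was read at 5.07, 5.78 and 6.08 RPKM with a half-life of 2.202 h and was not called slow. Ciita, the transactivator that switches class II genes on, was read at 16.8, 7.93 and 8.94 RPKM, and its half-life of 1.32 h was the shortest of the list. The regulator thus had a shorter half-life than each of the class II chains named here. Of 20 genes of MHC class I presentation 7 were slow and 0 fast, with a median of 2.02 h. They include the light chain B2m at 6531, 9724 and 10888 RPKM and the chaperones Calr and Pdia3 at 341, 652 and 556 RPKM and 189.8, 316 and 257 RPKM. The peptide transporter Tap1 had a half-life of 1.35 h.

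Co-stimulatory and checkpoint molecules, which instruct the T cell, decayed close to the median gene, with 2 fast and 1 slow among 18 and a median half-life of 1.31 h. Cd40, the receptor of CD40 ligand, was read at 111, 65.1 and 83.2 RPKM (half-life 1.496 h). Cd80 was read at 90.4, 37.6 and 46.6 RPKM (1.25 h), and Cd86, which binds CD28 as Cd80 does, at 80.5, 42.99 and 52.8 RPKM (1.41 h). These 3 transcripts had their lowest RPKM at 3 h, and none reached the 2-fold distance from the median gene. The fast members were Cd83, a maturation marker that stabilizes surface MHC class II, at 352, 32.6 and 19.9 RPKM and a half-life of 0.703 h, and the CD27 ligand Cd70 at 12.7, 2.597 and 1.25 RPKM. Lgals9 (galectin-9), a ligand of Tim-3, was the slow member at 109, 143 and 103 RPKM. Cd83 and Ccr7, both used as markers of the mature state, thus had shorter half-lives than Cd86.

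Transcription factors of the NF-κB, IRF, STAT and related families had a median half-life of 1.13 h, with 8 fast and 1 slow among 28. Id2, an inhibitor of bHLH factors needed for dendritic cell development, was read at 907, 128 and 32.2 RPKM, and its loss continued after 3 h, from 4.11% to 0.627% of the 0 h amount. Irf1 was read at 156, 24.9 and 17.8 RPKM, Irf4 at 17.8, 2.58 and 3.66 RPKM, and Spi1 (PU.1), the master factor of myeloid cells, at 229.7, 51.96 and 22.9 RPKM. Irf7, which amplifies the interferon response, was the only slow member. It was read at 376, 808 and 929 RPKM, a half-life of 4.67 h, while Irf3 had 1.82 h and Batf3, a factor of cross-presenting dendritic cells, 1.93 h. Within the IRF family, half-lives therefore ran from 0.828 h (Irf1) to 4.67 h (Irf7).

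Genes of the TLR4 pathway, through which LPS acts, had a median half-life of 1.25 h, with 4 fast and 1 slow among 26. The receptor Tlr4 was read at 5.14, 0.595 and 0.496 RPKM and was the fastest of the list, with a half-life of 0.798 h, whereas its co-receptor Cd14 was read at 413, 609 and 339 RPKM with 2.29 h. The later values of Tlr4 were low, at about 49.8 and 39.7 reads, and Tlr4 passed the filter only through the 0 h library. The adaptors Ticam1 (TRIF) and Ticam2 (TRAM) were fast, at 13.6, 2.96 and 2.202 RPKM and 8.89, 2.12 and 1.34 RPKM, and so was the kinase Irak2 at 24.7, 6.02 and 4.56 RPKM. Tirap, the adaptor that brings Myd88 to the receptor, was read at 4.28, 0.966 and 1.06 RPKM, a half-life of 0.994 h, and like Socs1 it fell short of the 2-fold distance at 6 h. The MAP kinase Mapk3 (ERK1) was the slow member at 214, 272 and 266 RPKM. The kinases Irak1 and Ikbke had half-lives of 1.89 and 1.93 h, so that members of the same pathway were lost at different speeds.

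Interferon-stimulated genes had 8 slow and 1 fast among 47, with a median half-life of 1.44 h. The slowest were small membrane proteins with antiviral action. Ifitm3, which blocks virus entry, was read at 923, 1819 and 1686 RPKM and Bst2 (tetherin), which holds budding virus, at 839.7, 1643 and 1539 RPKM. Isg20, an exonuclease, was read at 15.7, 26.6 and 29.1 RPKM and Oas1g, of the oligoadenylate synthetase family, at 30.99, 51.6 and 40.5 RPKM. The fast member was Oasl1 at 112, 29.1 and 23.6 RPKM, while Ifit1, an RNA sensor, was read at 64.8, 19.6 and 10.1 RPKM with a half-life of 0.984 h. The list thus held transcripts with half-lives from 0.982 to 3.69 h.

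Among 21 inflammatory enzymes 2 were fast and 4 slow (median 1.58 h). Irg1, which makes itaconate, was fast at 340, 93.98 and 41.95 RPKM, as was the arginase Arg2 with a half-life of 0.835 h. Sod2, the mitochondrial superoxide dismutase, Cybb, the NADPH oxidase subunit, Alox5ap and Ptges, which serve leukotriene and prostaglandin synthesis, were slow, with half-lives of 2.96, 2.87, 2.81 and 2.46 h. In the inflammasome list 1 of 11 was fast, Naip2 at 23.03, 6.005 and 3.86 RPKM, and 1 slow, Il18bp, the decoy of IL-18, at 64.9, 96.8 and 113 RPKM. The sensor Nlrp3 was read at 13.6, 3.15 and 3.36 RPKM, a half-life of 0.981 h, against 1.24 h for its adaptor Pycard.

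Stress pathways held fast genes too. Of 27 p53 targets 10 were fast and 0 slow (median 1.12 h), among them Sesn2, an inhibitor of mTORC1 signalling, at 31.9, 3.12 and 2.47 RPKM, the kinase Plk2 at 8.72, 0.982 and 0.953 RPKM and the secreted factor Gdf15 at 8.79, 1.02 and 1.41 RPKM. Plk2 was below 1 RPKM at 3 h and 6 h and passed the filter only through the 0 h library. Of 17 genes of the integrated stress and unfolded protein response 7 were fast and 1 slow (median 1.14 h). Ddit4 (REDD1), another inhibitor of mTORC1, was read at 56.7, 4.204 and 1.69 RPKM, a half-life of 0.648 h. Xbp1, the factor spliced by IRE1, was read at 62.1, 7.39 and 6.32 RPKM, and Herpud1, of endoplasmic reticulum-associated degradation, at 29.7, 3.62 and 3.65 RPKM. Only the chaperone partner Sdf2l1 was slow, with a half-life of 2.296 h. Of 20 apoptosis regulators 1 was fast, Bbc3 (Puma) at 30.6, 4.56 and 4.52 RPKM, and 1 slow, Bad, with a half-life of 2.23 h, and the median was 1.24 h. Genes of cell division, 20 in all, had 0 fast and 0 slow (median 1.201 h), and a median of 15.7% was left at 3 h and 4.38% at 6 h. Their loss from 3 to 6 h, at a median of 0.56 log2 units per h, exceeded the 0.34 of the median gene. The helicase subunits Mcm3, Mcm4 and Mcm6 had half-lives of 1.05, 1.05 and 1.03 h.

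The m6A machinery was itself on the shorter side, with 6 fast and 0 slow among 22 and a median half-life of 1.15 h. The writer Mettl3 was read at 7.79, 2.88 and 2.65 RPKM, a half-life of 1.15 h. Ythdf2, the reader that directs m6A-marked mRNA to decay, was read at 21.7, 4.76 and 2.67 RPKM and was fast. Ythdf1, the reader linked to translation, was also fast, with 18.2, 4.52 and 3.72 RPKM and a half-life of 0.974 h. The demethylase Alkbh5 was read at 22.4, 5.296 and 3.04 RPKM, and Cbll1 (Hakai) and Rbm15b, partners of the writer, at 6.92, 0.947 and 0.793 RPKM and 8.02, 1.95 and 1.15 RPKM. Cbll1 was below 1 RPKM at 3 h and 6 h and passed the filter only through the 0 h library. The longest half-lives of the list were 1.84 h for Hnrnpa2b1 and 1.77 h for Rbm15. Half-lives within the machinery thus ran from 0.825 h (Cbll1) to 1.84 h.

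The mRNA decay machinery had 10 fast and 0 slow among 49 (median 1.15 h). Btg1, which recruits the CCR4-NOT deadenylase, was read at 342, 72.6 and 39.1 RPKM, and Pnrc1, a factor of decapping, at 114, 22.7 and 12.8 RPKM. The decapping enhancer Edc3 was read at 10.2, 1.903 and 1.72 RPKM and the exosome subunit Exosc3 at 19.04, 3.81 and 2.27 RPKM. At the long end, the helicase Skiv2l of the cytoplasmic exosome had a half-life of 1.98 h and the deadenylase Pan2 1.67 h. SR splicing factors and their CLK kinases had 0 fast and 0 slow among 18 (median 1.41 h), from 1.09 h for Tra2b to 1.85 h for Srsf5.

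Cytosolic ribosomal proteins were the most stable list of all. Of 85 members 80 were slow (94.1%) and 0 fast, and the median half-life was 3.41 h, with quartiles of 3.15 and 3.68 h. The slow members include Rps27, whose values are uncertain as described above. Rps29 was read at 2455, 5028 and 6446 RPKM and Rpl37a at 960.3, 1951 and 2423 RPKM, and 46.2% and 44.4% of their amounts were left at 6 h. The exceptions were 5 genes, among which Rps27l, a p53-induced paralog, had a half-life of 1.26 h, Rps4l 1.17 h, Rpl7l1 1.33 h and Rpl26 1.37 h. Rps27l and Rpl7l1 are paralogs of core subunits, and Rps4l is annotated as a transcribed processed pseudogene. The other exception, Rpl34, named after its values were seen, was read at 179.8, 185 and 229 RPKM with a half-life of 2.13 h. Ribosomal protein genes have many processed pseudogenes, and how reads shared with them were counted is not stated. Nuclear genes of oxidative phosphorylation followed, with 39 slow and 0 fast among 78 (median 2.25 h), led by Atp5e at 532, 1033 and 1182 RPKM and Cox8a at 537, 998 and 1077 RPKM, small subunits of ATP synthase and cytochrome oxidase. The larger core subunits Ndufs1 and Uqcrc2 had half-lives of 1.23 and 1.33 h. Mitochondrial ribosomal proteins differed from the cytosolic ones, with 13 slow and 2 fast among 76 and a median of 1.499 h. Translation factors had 10 slow and 4 fast among 63 (median 1.59 h), and the aminoacyl-tRNA synthetases 1 slow and 3 fast among 35 (median 1.37 h). The fast translation factors include Eif3j2, whose values are uncertain as described above. In constitutive proteasome subunits 1 of 34 was slow, Psmd8, and the median was 1.54 h.

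Lysosomal hydrolases and membrane proteins had 18 slow and 0 fast among 36 (median 2.18 h), and 35 of 36 were lost at a lower rate than the median gene. The cathepsins Ctsb and Ctsd, lysosomal proteases, were read at 368, 760.2 and 607 RPKM and 1550, 2798 and 1940 RPKM, with half-lives of 3.68 and 2.96 h. Npc2, which carries cholesterol out of the lysosome, was read at 765, 1186 and 1455 RPKM. The exception was Atp6v1b2, a subunit of the proton pump, at 209.9, 94.4 and 46.6 RPKM and 1.14 h. Cd68 of this list is also a macrophage marker, and the summed RPKM of the macrophage markers moved as described above.

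Glycolysis had 6 slow and 1 fast among 18 (median 2.03 h). Gapdh was read at 1529, 2410 and 2437 RPKM and Pkm, the pyruvate kinase, at 627, 981 and 673 RPKM, while Hk2, the inducible hexokinase, was fast at 14.5, 2.996 and 1.76 RPKM. The glucose transporter Slc2a1 and the regulator Pfkfb3 had half-lives of 0.991 and 1.02 h. Hk2 and Gapdh thus changed in opposite directions in RPKM. NRF2 targets, which defend against oxidants, had 9 slow and 1 fast among 24 (median 1.84 h). The ferritin chains Fth1 and Ftl1 were read at 22820, 46548 and 39174 RPKM and 14983, 29114 and 27662 RPKM, with half-lives of 3.701 and 3.66 h. Prdx1, a peroxidase, was read at 2625, 5484 and 3442 RPKM, whereas the autophagy receptor Sqstm1 was read at 688, 240.2 and 111 RPKM with 1.02 h. Sterol and fatty acid synthesis had 4 fast and 0 slow among 28 (median 1.26 h), among them the cholesterol enzymes Sqle at 20.9, 3.09 and 1.66 RPKM and Hmgcs1 at 41.8, 6.31 and 3.59 RPKM.

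The cytoskeleton list was divided, with 7 slow and 2 fast among 27 (median 1.71 h). Tmsb4x, which binds actin monomers, was read at 20824, 34581 and 38634 RPKM and Cfl1 (cofilin) at 982, 1525 and 1598 RPKM, with half-lives of 3.22 and 2.92 h. Actb was read at 6262, 3514 and 1584 RPKM, a half-life of 1.23 h, and was among the 10 most abundant genes at 0 h but not at 6 h. The tubulins Tubb4b and Tubb6 were fast, at 67.1, 9.72 and 4.34 RPKM and 64.4, 16.3 and 10.3 RPKM. Tmsb4x and Cfl1 thus had longer half-lives than Actb and both of these tubulins. Heat shock chaperones had 3 fast and 2 slow among 17 (median 1.43 h), with the inducible Dnajb1 at 17.3, 3.45 and 2.47 RPKM and Hsp90b1 of the endoplasmic reticulum at 148, 223 and 142 RPKM. The medians of 2 large families lay near that of the median gene. Zfp zinc finger genes had 24 fast and 2 slow among 209 (median 1.27 h) and solute carriers 10 fast and 9 slow among 180 (median 1.45 h). The fast and slow shares were 11.5% and 0.957% for Zfp genes and 5.56% and 5% for solute carriers. Over all genes they were 8.76% and 10.1%, so slow Zfp genes were fewer than this background.

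In the list of snoRNA hosts and nuclear RNAs 6 of 17 were slow and 0 fast (median 1.79 h). Neat1, the scaffold of paraspeckles, was read at 836, 1065 and 1610 RPKM and Malat1 at 499, 797 and 709 RPKM, with half-lives of 2.71 and 2.84 h. Replication-dependent histones had 6 slow and 2 fast among 22 (median 1.96 h). These mRNAs lack a poly(A) tail, the libraries were made from poly(A) RNA, and the copies are near-identical. Most of the values were low, and 22 of 68 histone genes in the sheet passed the filter. The cause of the low values was not tested. Hist1h4m was listed at 9.96e-05, 3.91 and 1.96 RPKM and Hist1h2ao at 9.95, 2.79e-05 and 0.805 RPKM, and such values are uncertain.

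**Figure D5:**
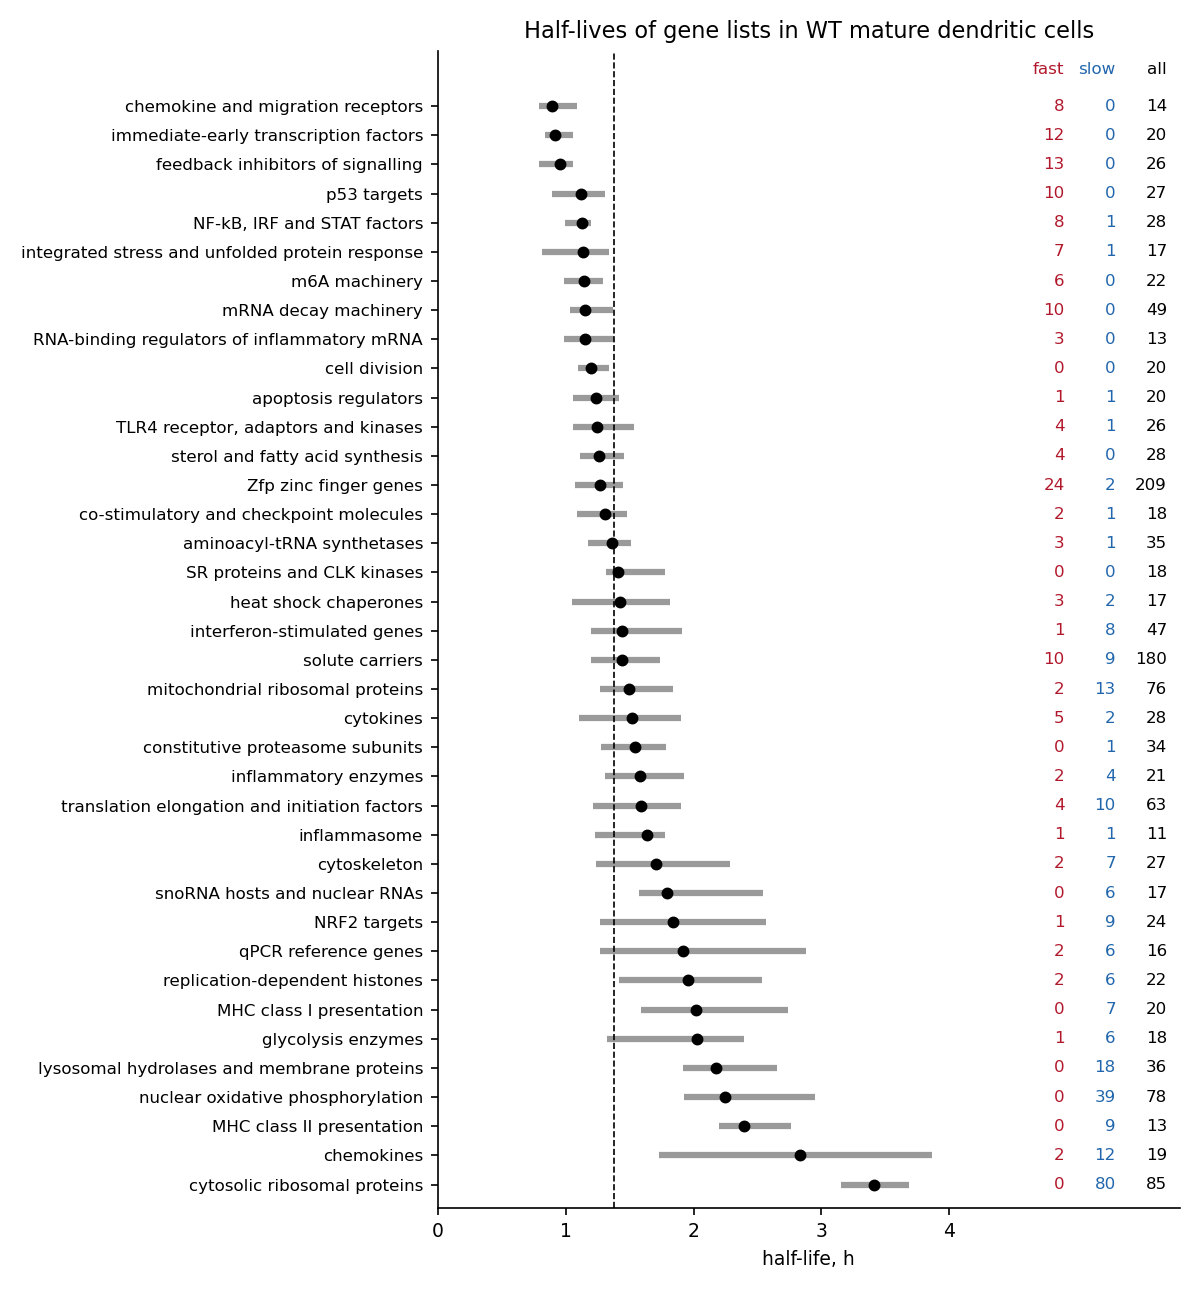
Median half-life in h (point) and interquartile range over members (bar) of 38 gene lists, sorted, with the number of fast, slow and all measured members at the right. The dashed line is the median gene at 1.38 h; lists run from 0.898 h for chemokine and migration receptors to 3.41 h for cytosolic ribosomal proteins.

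Half-life differed with the level of a gene. Of 10 groups of equal size by mean RPKM, the lowest (1.001 to 1.78 RPKM) had a median half-life of 1.32 h, the fourth (4.21 to 5.94 RPKM) 1.24 h, the ninth (30.5 to 68.2 RPKM) 1.64 h and the highest 2.13 h. The highest group held 46.0% slow and 1.996% fast genes, and the fourth 2.76% slow and 13.5% fast. The mean RPKM includes the 3 h and 6 h libraries, in which a slow gene gains share, so level and decay are not independent measures here. All of the 5 most abundant transcripts at 0 h, Ccl5, Fth1, Tmsb4x, Ftl1 and Saa3, were slow.

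Few genes changed course. A gene was said to level off where its amount relative to the median gene was at least 2-fold lower at 3 h than at 0 h and at least 2-fold higher at 6 h than at 3 h, and to be lost late in the opposite case. There were 15 genes of the first kind (0.143%) and 13 of the second (0.124%), and as both steps use the 3 h library, an error there moves them in opposite directions. Map3k8 (Tpl2), the kinase that links TLR4 to ERK, was read at 15.1, 3.56 and 8.59 RPKM, so that 6.98% of its amount was left at 3 h and 10.1% at 6 h. Mex3b, an RNA-binding protein, was read at 21.3, 5.25 and 8.98 RPKM, with 7.25% and 7.46% left. The amount of Mex3b and that of Map3k8 were thus no lower at 6 h than at 3 h, unlike those of most genes. Map3k8 rested on about 846, 188 and 434 reads. Of the genes lost late, the noncoding RNA Hotairm1 was read at 8.98, 16.8 and 4.95 RPKM and Mgst3, a microsomal glutathione transferase, at 9.796, 11.6 and 4.22 RPKM, and Rps27 is uncertain for the reason given above.

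The approximate standard error from read counts was 0.08 on the log2 ratio at 3 h and 0.09 at 6 h for the median gene, and 0.25 and 0.27 at the 95th percentile. It covers the sampling of reads alone and neither the handling of the cells nor the preparation of the libraries. For many genes named here another gene lies on the opposite strand or overlaps on the same strand, for example for Jun, Dusp1, Zfp36, Irf7, Irf3, Irf1, Cxcl10, Tap1, Cd74 and B2m. Whether the counting used strand is not stated, and reads of such neighbours cannot be told apart.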

How the data were processed

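Poly(A) RNA of WT maDC at 0, 3 and 6 h of actinomycin D was sequenced, 1 library per time. Tools in the submitters' processing notes are bcl2fastq, TopHat2 2.0.14 and Cuffnorm, with mm10; which annotation was used, and whether strand was, is not stated. The deposited values are RPKM in changed form. Each column equals a factor times (RPKM + 1) raised to a power, both constant within the column. The factors were 1, 0.390 and 0.220 and the powers 1, 0.961 and 0.987 at 0, 3 and 6 h. After undoing the power, 100% of values above 0 had 6 significant digits, as at 0 h, against 8.10% and 7.82% at 3 and 6 h with a power of 1. RPKM from undone powers was used throughout. Columns of KO cells and the authors' lifetimes in h, which the sheets also hold, were not used.

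Amounts were (RPKM + 0.1) times the median ratio of ERCC transcripts (0 h against the later time; 82 above 0 in each library), with the exact binomial interval of the median. The sheet gives no ERCC amounts. Genes averaging 1 RPKM or more were kept. Fold changes are on this scale with its pseudocount, which understates the losses of weakly expressed genes. Gene names that a spreadsheet had turned into dates (27, of which 18 passed the filter) are not named. Half-life follows the study's formula from the rates to 3 h and 6 h. Genes named are the 10 at each end of the mean rate (mean of at least 10 RPKM, at least 0.5 RPKM in each library), up to 4 at each end of each list, up to 6 levelling off or lost late (mean of at least 5 RPKM), the 10 most abundant at 0 h and 6 h, and those the study discusses; models without a gene name and small RNAs were left out. Members, lists and rules were chosen with earlier results of these data known, the list of qPCR reference genes after these values were seen. The 39 lists hold 1841 genes, 1419 of them measured; the list of mitochondrially encoded genes had 0 in the sheet. Transcript features and 3′UTRs are from GENCODE M21, 1 transcript per gene; motifs were searched on the transcript strand, overlaps counted. Depth was estimated from RPKM steps taken as 1 read, within a range fixed beforehand. Errors from it are approximate and cover counting only. Values of some single genes are not reported here. The rate calculation was run on simulated read counts with a decay rate set beforehand. This checks the code and not the precision of these libraries. Python 3.11.15, numpy 2.4.6, pandas 2.3.3, scipy 1.17.1 and matplotlib 3.10.9 were used.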

Additional observations from a re-analysis of the deposited data

How the results depend on the processing

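The main values are 17.1% left at 3 h, 8.21% left at 6 h, a median half-life of 1.38 h, and 921 fast, 1061 slow, 15 levelling and 13 late genes. With the authors' column factors in place of the ERCC median they were 22.9%, 10.3% and 1.59 h, and with no spike-in scaling 58.8%, 46.7% and 4.53 h; neither can change the fast and slow calls, which are relative. A pseudocount of 1 gave 18.5%, 9.25%, 1.44 h, 619 fast, 758 slow, 1 levelling and 5 late genes. With no filter but values above 0 the medians were 18.3%, 9.31% and 1.44 h. With a mean of at least 5 RPKM they were 19.0%, 8.97% and 1.45 h, with 658 slow, 4 levelling and 2 late genes among the fewer genes kept. Without the 3 h library the half-life was 1.66 h, with 1516 fast and 1650 slow genes, and without the 6 h library 1.18 h; fewer conditions have to be met then. A fold of 1.5 gave 2024 fast and 2228 slow genes, a fold of 3 gave 240 and 195.

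Alternatives chosen after seeing the data were RPKM with a power of 1 (19.2%, 8.76% and 1.45 h) and the deposited values used as amounts (22.9%, 11.3%, 1.62 h, 602 fast, 628 slow, 1 levelling and 2 late genes). In the second, 558 of the 921 fast and all 628 slow genes were shared with the main calls. The added 1 in the deposited values understates losses. Rates relative to the median gene were compared with their main values. Of the list medians under the alternatives 429 stayed near the main value and 27 moved. For named genes 2273 stayed and 1597 moved, with no called value reversed. These counts include the settings that change only the spike-in scale, which cannot move a relative rate. Called genes lie at least 2-fold from the median gene in the main setting, so a reversal was unlikely from the outset. Beyond what the construction of an alternative shows, the cause was not tested. No paired analysis was possible because each time has 1 library. The precision is limited by 1 library per time, and for weakly expressed genes by read number.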

Other observations

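Genes often used as references in quantitative PCR were collected after the values were seen. Of 16 such genes 6 were slow and 2 fast, with a median half-life of 1.92 h, and they did not keep a constant ratio to each other. Rplp0, a ribosomal protein, was read at 996, 1774 and 2359 RPKM, Ppia (cyclophilin A) at 2327, 3797 and 4554 RPKM and Gapdh at 1529, 2410 and 2437 RPKM. In contrast, Actb was read at 6262, 3514 and 1584 RPKM and Tbp, the TATA-binding protein, at 11.3, 4.597 and 4.29 RPKM. Polr2a, the large subunit of RNA polymerase II, was one of the fast genes, at 36.1, 9.51 and 6.44 RPKM. The amount left at 6 h ran from 3.18% for Polr2a to 41.7% for Rplp0.

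The ERCC factor differed with the abundance of the spike-in. Divided into 4 groups of 20 or 21 by RPKM, the least abundant ERCC transcripts gave 0.378 at 3 h and 0.201 at 6 h, the next 0.251 and 0.159, the third 0.282 and 0.175, and the most abundant 0.289 and 0.176.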
